A study of Mus musculus with 45 samples.

Results

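The 9 genes described here, Gypc, Rhd, Rhag, Kel, Ermap, Xk, Icam4, Slc14a1 and Aqp1, encode blood group and surface proteins of the red cell. They were taken by name from a table of gene scores for 24333 genes, and all 9 were in it. The series held 45 samples, of which 6 were analysed: single-nucleus chromatin accessibility (ATAC) libraries of sorted Ter119+ erythroblasts, 3 from Stag2 WT and 3 from Stag2 KO mice. Ter119 marks red cell precursors from the erythroblast stages on, and Stag2 is part of cohesin, whose rings hold chromatin in loops. Both genotypes were sampled 6 to 8 weeks after dosing with pIpC ended; this is an inducer of interferon that is widely used to switch on a deletion, and the WT mice had received it too. The Cre driver, the age and sex of the mice and the number of mice per library were not given in the sources used here, and p-values therefore measure only the spread between these libraries.

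A gene score sums the ATAC fragments around a gene. It is a measure of accessibility, not of RNA or protein, and neighbouring genes share part of it. Each nucleus had been scaled by the authors to a sum between 9999.86 and 10000.12 over all genes. Here the scores were averaged within a library and rescaled so that each library summed to 1000000, so a value is in parts per 1000000 of the library's score. Levels are compared between libraries and nuclei for the same gene, never between genes, because a score depends on the length and surroundings of the gene. Each nucleus carried the authors' class, Early, Int (read here as intermediate) or Late, and a cluster number. In an average over a library, fewer nuclei of a kind and a lower score per nucleus cannot be told apart.

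As background, the red cell surface is built around protein complexes that tie the lipid bilayer to the membrane skeleton and carry gas, water and urea. Rhd carries the Rh antigen and reaches the membrane together with Rhag, a glycoprotein of the ammonium transporter family; Icam4, an adhesion ligand for integrins, belongs to the same complex. Kel, the Kell antigen, is a zinc endopeptidase that is held by a disulfide bond to Xk, a membrane protein whose loss in humans causes the McLeod syndrome. Gypc, glycophorin C, anchors the skeleton through protein 4.1. Ermap carries the Scianna antigens, Slc14a1 is the urea transporter with the Kidd antigens, and Aqp1 is the water channel with the Colton antigens. Many genes of mature erythroblasts carry binding sites of the transcription factor Gata1, which recognises GATA letters.

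Promoter sequences were looked up because the binding of Gata1 in Stag2 KO cells is among the questions of the study. RefSeq promoters (GRCm38.p6, 250 bases before to 50 after the start of the gene) were examined for 7 of the 9 genes. Those of Gypc and Slc14a1 were not examined. The 250 bases before the start are shown, 5′ to 3′ along the gene, for Rhag and Kel, partners in the Rh and Kell complexes, for Icam4, which changed least over all nuclei, and for Aqp1, which changed most in Late nuclei. Capitals mark GATA letters (AGATAA and AGATAG, and with another first base TGATAA and also TGATAG, on either strand).
Rhag, chr17:40810899-40811148, plus strand: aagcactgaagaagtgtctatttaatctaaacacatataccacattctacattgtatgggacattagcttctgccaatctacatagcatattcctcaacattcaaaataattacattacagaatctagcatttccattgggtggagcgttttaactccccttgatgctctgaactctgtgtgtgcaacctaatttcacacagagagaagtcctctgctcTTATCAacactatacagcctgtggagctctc
Kel, chr6:41704326-41704575, minus strand: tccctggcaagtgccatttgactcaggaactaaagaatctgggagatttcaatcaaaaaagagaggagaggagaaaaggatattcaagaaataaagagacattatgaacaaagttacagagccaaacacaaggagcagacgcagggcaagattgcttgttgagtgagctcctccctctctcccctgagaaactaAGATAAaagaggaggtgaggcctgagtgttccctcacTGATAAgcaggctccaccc
Icam4, chr9:21029182-21029431, plus strand: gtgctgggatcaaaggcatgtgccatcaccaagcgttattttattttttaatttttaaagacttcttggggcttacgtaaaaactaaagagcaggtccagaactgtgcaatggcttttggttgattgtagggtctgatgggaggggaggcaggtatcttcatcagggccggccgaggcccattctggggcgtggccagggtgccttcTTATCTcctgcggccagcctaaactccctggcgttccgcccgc
Aqp1, chr6:55336049-55336298, plus strand: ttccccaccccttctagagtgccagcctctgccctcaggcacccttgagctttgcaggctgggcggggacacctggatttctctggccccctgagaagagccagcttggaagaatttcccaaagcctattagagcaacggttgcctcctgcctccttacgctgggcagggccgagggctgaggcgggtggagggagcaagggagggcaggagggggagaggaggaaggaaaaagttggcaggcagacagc
In the whole window of 300 bases, GATA letters were found in 5 of the 7 promoters, where 29.8% of 32851 promoters held them. They began at position -31 from the start in Rhag, at -56 and -19 in Kel, at -43 in Icam4, at -43 in Rhd and at -67 in Ermap. Positions count from the start used for the window. For Icam4 and Ermap that start lies inside the gene as placed in the deposited table, by 59 bases for Icam4. The windows of Xk and Aqp1 held none of these letters. The letters CCNCNCCC, a form of the CACCC box on either strand, were found in 4 of the 7 (Rhd, Xk, Icam4 and Aqp1) against 49.5% of promoters. The E-box letters CANNTG were found in 4 of the 7 (Rhd, Kel, Icam4 and Aqp1) against 72.3%.  Such a match describes letters and shows no binding, and its absence says only that these letters are not in this window.

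The libraries held 4617 to 6990 nuclei and 46782673 to 66286151 fragments, with a median of 7122.5 to 8874 fragments per nucleus, and 34073 nuclei in all. Fragment ends in peaks made up a median of 62.2% to 64.7% per nucleus in the WT and 57.4% to 59.9% in the KO libraries, so the groups were apart in this measure; its part in the results was not tested. Of 33320 distinct barcodes, 725 were used in more than 1 library. Int nuclei made up 32.6% to 57.2% of a WT library and 44.2% to 48.8% of a KO library, and Late nuclei most of the rest. The score of Stag2 itself was 64.2, 65.7 and 65.9 in WT and 61.0, 65.1 and 62.4 in KO (log2 change -0.054, adjusted p = 0.348, limma), so it did not mark the deletion; a score summed over a whole gene need not show the loss of an exon. Erythroid markers had scores above 0 in every library, and 8 of the 10 listed were in the table. Their summed score was 1703 to 1833 in WT and 1482 to 1592 in KO, and 7 of the 8 were lower past the threshold. Among all genes tested 14.2% were lower past it, and among the 25% of genes with the highest levels 31.4% were. Of the marker lists of other cells, the megakaryocyte list (5 genes) summed to 181 to 210 in WT and 218 to 234 in KO, the B cell list (5 genes) to 67.1 to 73.2 and 77.3 to 83.6, and the mast or basophil list (4 genes) to 11.8 to 15.55 and 15.60 to 18.4, in each case with the genotypes apart. The neutrophil and monocyte list (6 genes) at 169 to 208 and 191 to 220, the endothelial list (6 genes) at 127 to 137 and 132 to 138 and the T cell list (5 genes) at 69.9 to 80.0 and 74.1 to 81.6 overlapped. Of 4 megakaryocyte genes tested 1 was higher and 1 lower past an adjusted p of 0.05. Of 4 B cell genes 2 were higher, and the 1 mast or basophil gene tested did not pass. In the lists that overlapped, 1 of 5 neutrophil and monocyte, 1 of 5 endothelial and 1 of 3 T cell genes were higher, and 1 endothelial gene was lower. Over all genes tested 29.1% were higher. No marker was at 0 in any library, and the part of other cells in the results was not tested.

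Over all nuclei, 7 of the 9 genes were lower in KO past an adjusted p of 0.05 (limma), with Xk at 72.4% and Aqp1 at 74.3% of the WT mean. Rhd and Icam4 did not pass, and none of the 9 was higher. Of 17682 genes tested, 43.3% were called in either direction and 14.2% lower. Highly scored genes were called lower more often: of the 25% of genes with the highest levels, which held 7 of the 9 (not Xk or Slc14a1), 31.4% were lower. The median log2 change was -0.23 for the 9 genes, 0.096 for all genes and -0.071 for that highest 25%. For 7 of the 9 all KO libraries lay below all WT libraries, where 19.3% of genes did.

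**Figure D1:**
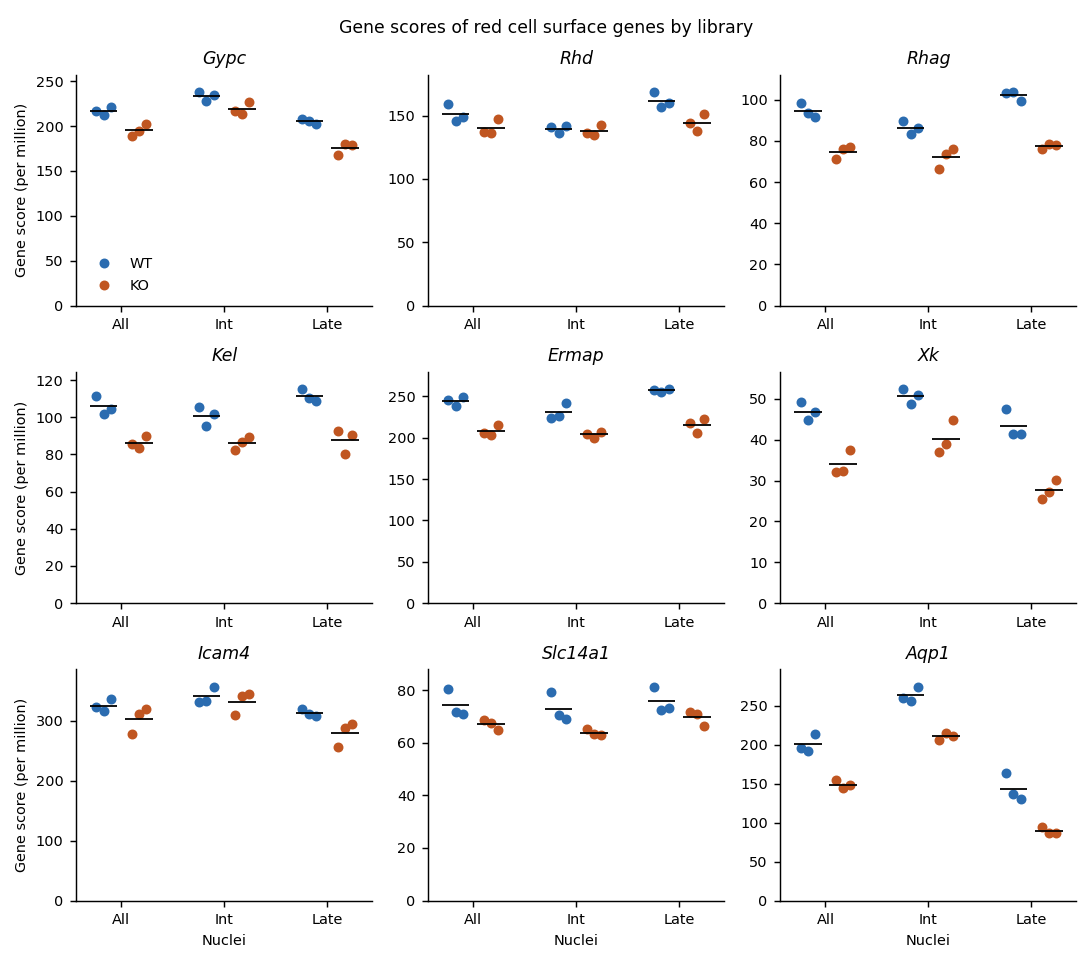
Gene score (per 1000000) of each gene in all, Int and Late nuclei, 1 point per library (WT blue, KO orange) and a bar at the mean of 3. In Late nuclei the KO points lie below the WT points for each of the 9 genes; in Int nuclei Rhd and Icam4 overlap.

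The members of the Rh complex differed in size of change. Rhag scored 98.4, 93.8 and 91.8 in WT replicates 1 to 3 and 71.1, 76.1 and 77.1 in KO replicates 1 to 3. The groups were well apart, and the gene fell by 0.34 on the log2 scale (SE 0.047, adjusted p = 2.71e-05, limma). Rhd, the antigen that Rhag escorts, scored 159, 146 and 149 in WT and 137, 136 and 147 in KO. KO replicate 3 lay above WT replicate 2, so the groups overlapped, and the change of -0.11 (SE 0.046, adjusted p = 0.0589) did not pass the threshold. It passed under median centring (-0.26), with the replicate number as a block (-0.11) and without WT replicate 2 (-0.14) or KO replicate 3 (-0.15). Icam4 scored 322, 316 and 336 in WT and 278, 311 and 319 in KO. KO replicate 1 was lowest and KO replicate 3 lay among the WT libraries, and the change of -0.10 (SE 0.056, adjusted p = 0.138) did not pass.

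Both members of the Kell complex fell. Kel scored 111, 102 and 104 in WT and 85.5, 83.2 and 89.7 in KO, a fall to 81.3% of the WT mean (log2 change -0.29, SE 0.046, adjusted p = 9.99e-05). Every KO library was below every WT library. Xk scored 49.1, 44.7 and 46.8 in WT and 32.0, 32.4 and 37.4 in KO, with the groups again apart (log2 change -0.46, SE 0.068, adjusted p = 6.36e-05). Only 0.679% of genes had a lower change than Xk. Xk lies on the X chromosome, as Stag2 does; the 416 X-linked genes tested had a median change of -0.019.

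Gypc, the skeleton anchor, scored 217, 213 and 221 in WT and 189, 195 and 202 in KO. The groups were apart, and the change was small, at -0.15 (SE 0.044, adjusted p = 0.0123). It did not pass without KO replicate 1 (-0.13), under quantile normalization (-0.074), under cyclic loess (-0.075) or without a variance trend (-0.15). Ermap scored 245, 238 and 249 in WT and 206, 203 and 215 in KO, so that every KO library was lower, by 0.23 on average on the log2 scale (log2 change -0.23, SE 0.045, adjusted p = 0.000652).

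The transporters differed too. Aqp1, the water channel, scored 196, 192 and 213 in WT and 155, 144 and 148 in KO. The highest KO library was far below the lowest WT library (log2 change -0.43, SE 0.048, adjusted p = 2.56e-06), and 0.837% of genes had a lower change. Slc14a1, the urea transporter, scored 80.7, 71.7 and 70.9 in WT and 68.9, 67.5 and 64.8 in KO. WT replicate 1 stood above the other libraries; the change of -0.15 (SE 0.053, adjusted p = 0.0333) was -0.088 and no longer past the threshold without it, nor did it pass without KO replicate 2 (-0.15) or KO replicate 3 (-0.12). It also missed the threshold under quantile normalization (-0.11), under cyclic loess (-0.10), without a filter on low scores and without a variance trend (-0.15 in both).

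**Figure D2:**
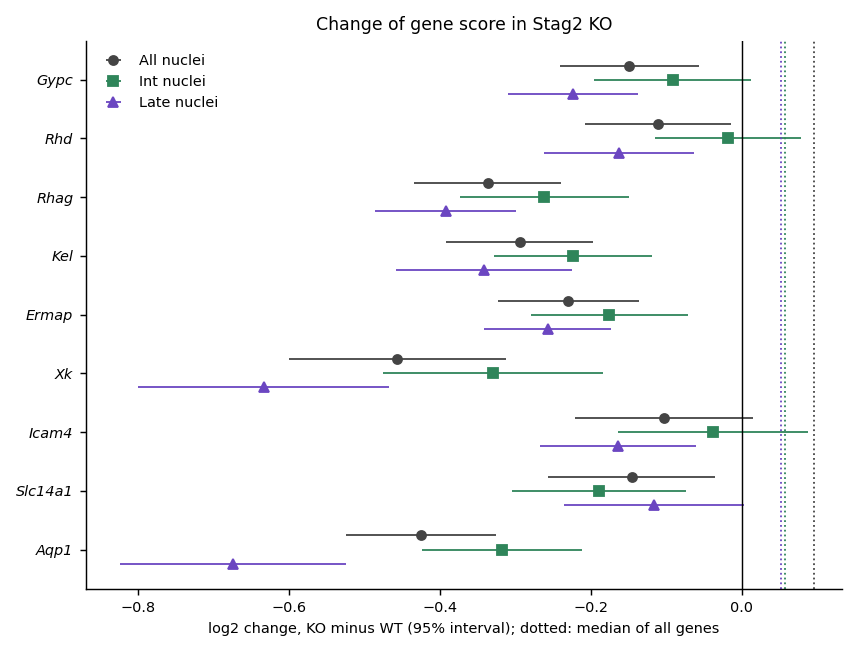
Log2 change of the gene score, KO minus WT, with its 95% interval from limma (3 libraries per genotype), for all (circles), Int (squares) and Late nuclei (triangles); dotted lines mark the median of all genes tested in each. Xk, Aqp1, Rhag and Kel lie farthest below 0, and nearest to it are Rhd and Icam4 in all and Int nuclei and Slc14a1 in Late nuclei.

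Within Int nuclei 6 of the 9 genes were lower past the threshold, against 7.10% of 19465 genes (19.8% in either direction, 12.7% higher; 17.8% lower among the highest 25%, which held 7 of the 9). They were Rhag, Kel, Ermap, Xk, Slc14a1 and Aqp1. The median change was -0.19 for the 9 genes and 0.057 for all genes. Aqp1 scored 260, 256 and 275 in WT and 206, 215 and 212 in KO (log2 change -0.32, SE 0.052, adjusted p = 4.48e-05). Xk scored 52.4, 48.7 and 50.9 in WT and 36.9, 38.9 and 44.9 in KO (-0.33, SE 0.071, adjusted p = 0.00121). In both the groups were apart, as they were for 7 of the 9 genes against 14.4% of all genes. In these nuclei the neutrophil and monocyte markers summed to 132 to 153 in WT and 163 to 180 in KO, apart here though not over all nuclei, and 3 of the 6 were higher and 0 lower. The megakaryocyte (196 to 229 in WT, 231 to 256 in KO), B cell (80.9 to 89.5 and 90.9 to 101.6) and mast or basophil lists (13.9 to 20.3 and 20.5 to 20.8) were apart too, and the endothelial and T cell lists overlapped. Of 4 megakaryocyte genes tested 1 was higher and 1 lower, and of 6 endothelial genes also 1 and 1. Of the B cell (4 tested), mast or basophil (1 tested) and T cell genes (4 tested) 0 passed. The erythroid list summed to 1601 to 1754 in WT and 1460 to 1559 in KO, with 5 of 8 lower. The part of these markers in the Int results was not tested.

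The other Int changes were smaller. They were -0.26 for Rhag (adjusted p = 0.000891), -0.22 for Kel (0.00220), -0.18 for Ermap (0.0135) and -0.19 for Slc14a1 (0.0170). Ermap did not pass without KO replicate 2 (-0.16) or under cyclic loess (-0.099, adjusted p = 0.0588), and Slc14a1 did not without WT replicate 1 (-0.13), without KO replicate 2 (-0.18) or without a filter on low scores (-0.19). Without a mean-variance trend in limma 1 of the 9 passed, Aqp1, where 1921 of 19465 genes passed in either direction. Gypc changed by -0.092 (95% interval -0.20 to 0.012, adjusted p = 0.214) although its groups were apart. Rhd changed by -0.019 (interval -0.11 to 0.078, adjusted p = 0.816) and Icam4 by -0.038 (interval -0.16 to 0.088, adjusted p = 0.702), and both signs flipped under quantile normalization (0.025 and 0.019) and cyclic loess (0.043 and 0.048); for Icam4 the sign also flipped without KO replicate 1 (0.010).

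Within Late nuclei 8 of the 9 genes were lower past the threshold, and all 9 had every KO library below every WT library. Of 15886 genes 18.5% were called lower (51.4% in either direction, 32.9% higher; 32.8% lower among the highest 25%, which held 7 of the 9), and 22.7% were apart in that direction. The median change was -0.26 for the 9 genes and 0.052 for all genes. Aqp1 scored 164, 136 and 131 in WT and 94.4, 86.1 and 87.0 in KO, 62.1% of the WT mean. Its log2 change of -0.67 (SE 0.070, adjusted p = 5.17e-06) was lower than that of all but 0.334% of genes. Xk scored 47.6, 41.4 and 41.3 in WT and 25.5, 27.2 and 30.2 in KO, 63.6% of the WT mean (-0.63, SE 0.078, adjusted p = 2.23e-05). The erythroid markers in these nuclei summed to 1847 to 1913 in WT and 1596 to 1629 in KO, with 7 of 8 lower. Of the lists of other cells, the B cell list (49.3 to 56.6 in WT, 61.3 to 66.2 in KO, with 2 of 4 tested higher) and the mast or basophil list (8.66 to 9.56 and 10.5 to 13.7, with none tested) were apart and the other 4 overlapped. In these 4, 2 of 5 neutrophil and monocyte genes tested were higher and 0 lower. Of 3 endothelial genes 2 were higher and 1 lower, as of 3 megakaryocyte genes, and 0 of 2 T cell genes passed. The part of these markers in the Late results was not tested.

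Rhag scored 103, 104 and 99.3 in WT and 76.1, 78.3 and 78.2 in Late KO nuclei. The spread within a genotype was small beside the difference (log2 change -0.39, SE 0.044, adjusted p = 9.99e-06). Kel scored 115, 110 and 109 in WT and 92.6, 80.4 and 90.3 in KO (-0.34, SE 0.054, adjusted p = 0.000184). Ermap scored 258, 256 and 259 in WT and 218, 206 and 223 in KO (-0.26, SE 0.039, adjusted p = 0.000137). All 3 had KO libraries below every WT library.

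Gypc scored 208, 206 and 202 in WT and 168, 180 and 179 in Late KO nuclei (log2 change -0.22, SE 0.040, adjusted p = 0.000482). Rhd scored 169, 156 and 160 in WT and 144, 138 and 152 in KO (-0.16, SE 0.046, adjusted p = 0.00950). Icam4 scored 320, 311 and 308 in WT and 257, 287 and 295 in KO (-0.16, SE 0.048, adjusted p = 0.0118). Gypc kept its call in each of 17 alternatives, while Rhd did not pass without KO replicate 2 (-0.13), under quantile normalization (-0.11), under cyclic loess (-0.10) or without a variance trend (-0.16). Icam4 did not pass without KO replicate 1 (-0.10), under cyclic loess (-0.12), without a filter on low scores or without a variance trend (-0.16 in both). Slc14a1 scored 81.4, 72.6 and 73.5 in WT and 71.9, 71.0 and 66.5 in KO. The groups were apart by a small gap only, and the change of -0.12 (interval -0.24 to 0.0029, adjusted p = 0.0938) did not pass. It passed under median centring (-0.18, adjusted p = 0.0124) and with means standardised for depth (-0.14, adjusted p = 0.0424).

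The scaling of the libraries bears on these counts. Median centring lowered the median of all genes from 0.096 to -0.050 in all nuclei and from 0.057 to -0.12 in Int nuclei, and quantile normalization moved it to -0.018 in each. Among the genes called in all nuclei 67.1% were higher in KO as computed, 35.4% under median centring, 46.9% under quantile normalization and 54.0% under cyclic loess. In Int nuclei these shares were 64.2%, 24.4%, 50.7% and 57.5%, and in Late nuclei 64.0%, 47.9%, 46.5% and 52.5%. The share of all genes called lower moved too. In all nuclei it was 14.2% as computed, 31.2% under median centring, 16.3% under quantile normalization and 13.6% under cyclic loess, and in the same order 7, 8, 5 and 5 of the 9 genes were called lower. In Int nuclei it was 7.10%, 21.6%, 10.4% and 8.51%, with 6, 6, 6 and 5 of the 9. In Late nuclei it was 18.5%, 28.2%, 20.2% and 17.7%, with 8, 9, 7 and 6 of the 9. The 9 genes had changes below 0 in all nuclei and in Late nuclei under each of these.

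The KO effect was then compared between the classes within each library. None of the 9 genes passed the test of the difference, Late minus Int (limma; 35 of 15873 genes did, 0.221%, and 2799, or 17.6%, had an unadjusted p under 0.05). Unadjusted, 3 of the 9 were under 0.05, namely Rhd, Xk and Aqp1. The fall was 0.36 larger in Late nuclei for Aqp1 (difference -0.36, SE 0.13, adjusted p = 0.218), 0.30 larger for Xk (-0.30, SE 0.079, adjusted p = 0.118) and 0.14 larger for Rhd (-0.14, SE 0.049, adjusted p = 0.194). Xk passed when only genes with a mean of at least 20 were tested (adjusted p = 0.0426). For 6 of the 9 every KO difference lay below every WT difference, where 10.5% of genes did, but Slc14a1 had the opposite sign (0.073, adjusted p = 0.515).

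The classes themselves came from the authors' grouping of these nuclei, so levels between them are described without a test. Late nuclei scored above Int nuclei in every library for Rhd, Rhag, Ermap and Slc14a1, as 29.1% of genes did. They scored below in every library for Gypc, Xk, Icam4 and Aqp1, as 41.4% of genes did. Kel was higher in Late nuclei in 5 of 6 libraries. Late nuclei were shallower, with a median of 5693 to 6812 fragments per library against 10121 to 14998 in Int nuclei. In bins of like depth (1 shallow) the order was not kept throughout. Ermap in KO averaged 221, 226, 221, 200 and 195 in Late and 198, 206, 214, 221 and 213 in Int bins 1 to 5. Slc14a1 in WT averaged 66.1 in Late and 80.4 in Int bin 1, and 90.8 and 72.0 in bin 5. The part of depth was not tested. Aqp1 dropped most from Int to Late, by a log2 difference of -0.67, -0.90 and -1.07 in WT and -1.12, -1.31 and -1.27 in KO. The difference for Xk was -0.14, -0.23 and -0.30 in WT and -0.51, -0.50 and -0.55 in KO. For these 2 genes the genotypes did not overlap, whereas for Ermap the KO differences of 0.039 to 0.10 reached the WT range of 0.099 to 0.20.

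**Figure D3:**
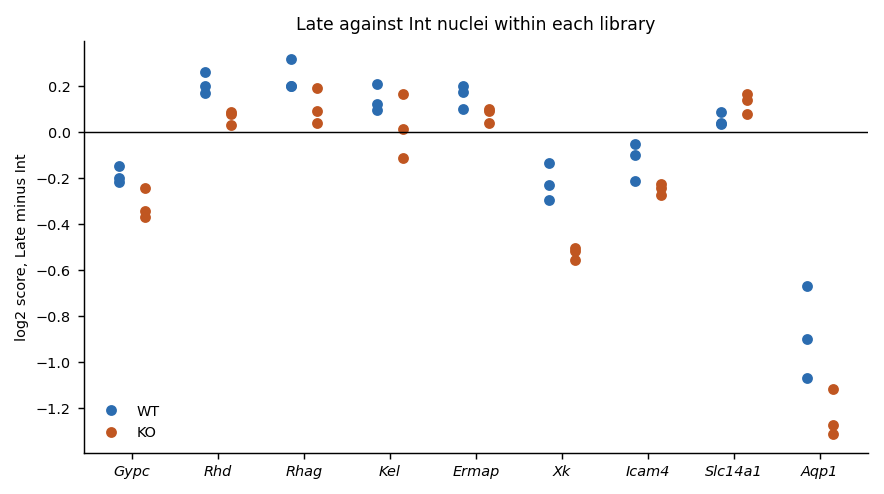
Log2 score in Late minus Int nuclei within each library, 1 point per library (WT blue, KO orange). Aqp1 lies between -0.67 and -1.31, and Rhd, Rhag, Ermap and Slc14a1 lie above 0 in all 6.

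Early nuclei numbered at least 50 only in WT replicates 1 and 2 and KO replicate 1, so no comparison of genotypes was made. Gypc, Ermap, Icam4, Kel, Rhd and Aqp1 were lower there than in Int nuclei of the same library. Aqp1 was at 216 and 215 in the WT libraries and 183 in the KO library, against 260, 256 and 206 in their Int nuclei. Rhag and Xk were lower than in Int nuclei in both WT libraries but not in the KO library, where Rhag was at 71.0 against 66.5 and Xk at 40.6 against 36.9. Icam4 was at 204 and 205 in the WT libraries and 189 in the KO library, against Int levels of 310 to 357. Ermap was at 140 and 147 in the WT libraries and 135 in the KO library, against 200 to 242 in Int nuclei. Slc14a1 scored 72.2 and 78.4 in the WT libraries and 75.9 in the KO library, against 62.9 to 79.2 in Int nuclei. Early nuclei were deeper, with a median of 41018 to 44045.5 fragments in these libraries against 12671 to 14532 in their Int nuclei. The part of depth in these levels was not tested.

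The authors' clusters mostly held nuclei of 1 genotype, and only C2 and C5 had at least 50 nuclei in every library. The other clusters give levels without a test. The clusters, like the classes, came from the authors' grouping of these nuclei. A comparison of genotypes inside a cluster therefore depends on which nuclei were placed in it. Among Late nuclei, the WT cluster C3 (10059 of its 10134 nuclei) and the KO cluster C2 (7070 of 7260) held most nuclei of their genotype. Their levels therefore repeat those of the class and are not a second result. Aqp1 was at 143 ± 18.1 in WT nuclei of C3 and 90.2 ± 4.99 in KO nuclei of C2 (SD, n = 3 libraries each). Xk was at 43.3 ± 3.51 and 27.7 ± 2.20 in the same nuclei. Among Int nuclei, Aqp1 was at 262 ± 14.3 in the WT cluster C11 and 201 ± 8.95 in the KO cluster C10, and at 265 ± 13.5 in the WT cluster C9 and 223 ± 2.69 in the KO cluster C8. Icam4 was at 346 ± 5.97 in C11 and 341 ± 18.1 in C10, which is within the spread of the libraries.

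**Figure D4:**
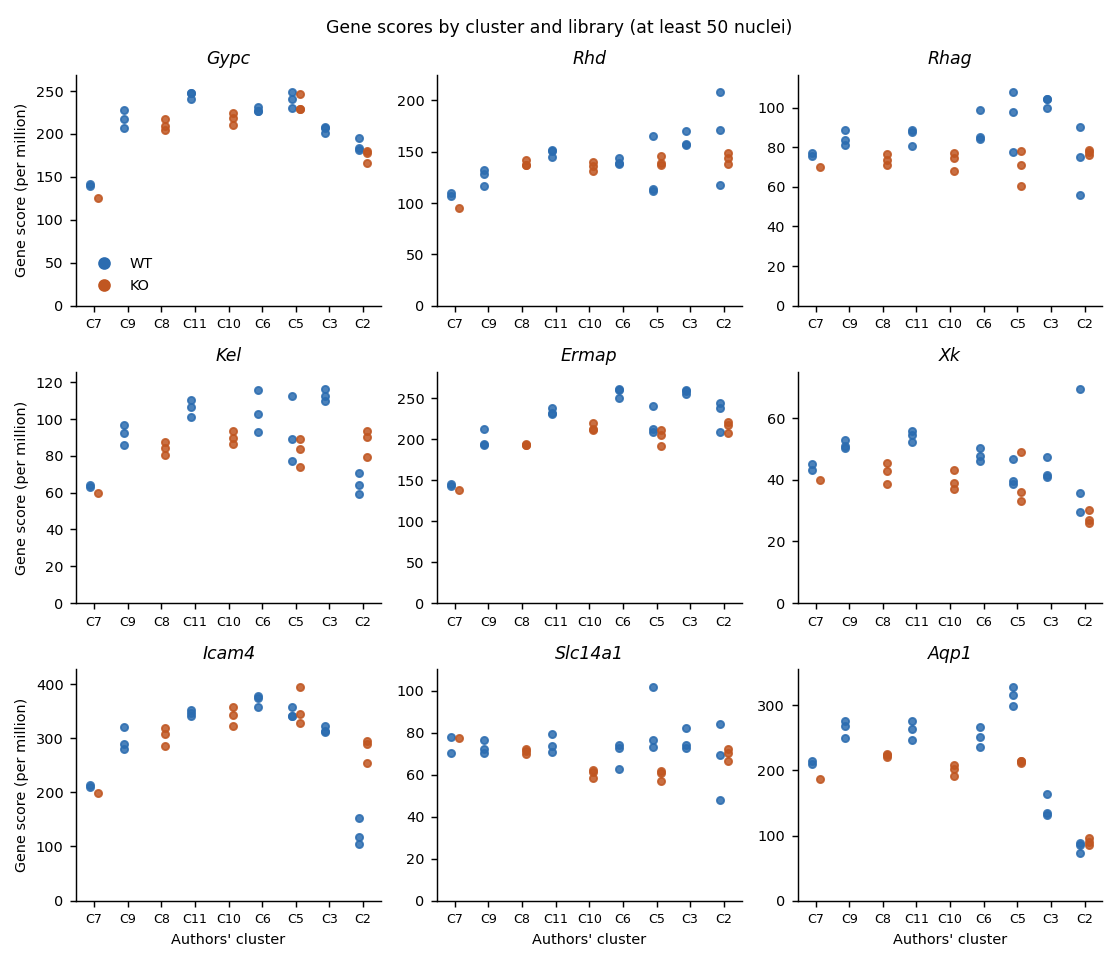
Gene score (per 1000000) by authors' cluster, 1 point per library with at least 50 nuclei in the cluster (WT blue, KO orange); clusters run from Early (C7) through Int to Late (C3, C2). In C2 the WT points of Icam4, at 105 to 153, lie below its KO points, at 254 to 294.

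C5, an Int cluster with nuclei of both genotypes, held 143 to 261 nuclei per WT and 528 to 598 per KO library. Aqp1 scored 300, 329 and 317 in WT and 212, 214 and 214 in KO, the highest WT level of any cluster shown, and was lower in KO (log2 change -0.56, SE 0.085, adjusted p = 0.0129, where 0.478% of 19438 genes were called lower and 0.890% in either direction). The call was lost without any 1 of the KO libraries, although the change stayed between -0.53 and -0.59 when single libraries were left out (adjusted p up to 0.114). Slc14a1 scored 102, 73.0 and 76.6 in WT and 60.8, 61.8 and 56.9 in KO. The groups were apart, as they were downward for 7.89% of genes, and the change of -0.47 (SE 0.15, adjusted p = 0.197) did not pass; none of the other 7 genes passed either.

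In C2 no gene of 17360 passed (limma; 2190, or 12.6%, had an unadjusted p under 0.05), and its WT nuclei were few and shallow. The median change of all genes was 0.15, and that of the 9 genes 0.089. WT libraries had 58 to 68 nuclei in C2, with a median of 2101 fragments, against 6285.5 fragments in the KO nuclei. Icam4 scored 105, 153 and 117 in WT and 254, 290 and 294 in KO, so the WT libraries were far below the KO libraries (log2 change 1.17, SE 0.17, adjusted p = 0.160); 89.6% of genes had a lower change. It passed without any 1 of the WT libraries (1.05 to 1.32, adjusted p from 0.0323) and did not without any 1 of the KO libraries (adjusted p up to 0.977), where 0 genes passed. In WT nuclei of C3 it was at 311 to 323. Kel scored 64.1, 59.4 and 70.5 in WT and 93.4, 79.3 and 90.4 in KO, also without overlap (0.43, SE 0.16, adjusted p = 0.357); 68.1% of genes had a lower change, and 16.3% were higher in KO without overlap. Gypc was lower without overlap, as 9.47% of genes were, at 195, 184 and 181 in WT and 167, 180 and 178 in KO (-0.095, adjusted p = 0.750). Aqp1 did not show the difference of the Late class here, at 85.1, 87.9 and 73.1 in WT and 95.5, 85.7 and 89.3 in KO. The WT nuclei of C2 are those that were grouped with KO nuclei, so levels inside C2 cannot tell whether the class difference holds. In the nuclei of C2 with fewer than 3546 fragments, an alternative chosen after the data were seen, Icam4 scored 95.9, 153 and 82.9 in WT and 212, 289 and 287 in KO (adjusted p = 0.409 for a change of 1.28).

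The changes were looked at again among nuclei of like depth, because fragments per nucleus differed between libraries and classes. Nuclei were put into 6 bins by fragments, of which 6 held at least 20 Int nuclei and 5 at least 20 Late nuclei in every library. The share of all genes apart was not computed by bin. Over the whole class, 14.4% of genes in Int and 22.7% in Late nuclei had every KO library below every WT library. The bins come from the same 6 libraries, so they are not independent. Aqp1 was lower in all KO than in all WT libraries in 6 of 6 Int and 5 of 5 Late bins. Rhag was so in 4 of 6 and 5 of 5, and Xk, Kel and Ermap each in 3 of 6 and 5 of 5. In the shallowest Late bin Aqp1 was at 143 ± 18.6 in WT and 75.8 ± 5.25 in KO, and in the deepest at 162 ± 10.6 and 118 ± 13.0 (SD, n = 3). Icam4 was apart in 1 of 6 Int and 2 of 5 Late bins, and Rhd in 0 of 6 and 3 of 5. Gypc was apart in 3 of 6 and 4 of 5, with the KO mean lower in 4 of the 6 Int bins, and Slc14a1 in 3 of 6 and 2 of 5.

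**Figure D5:**
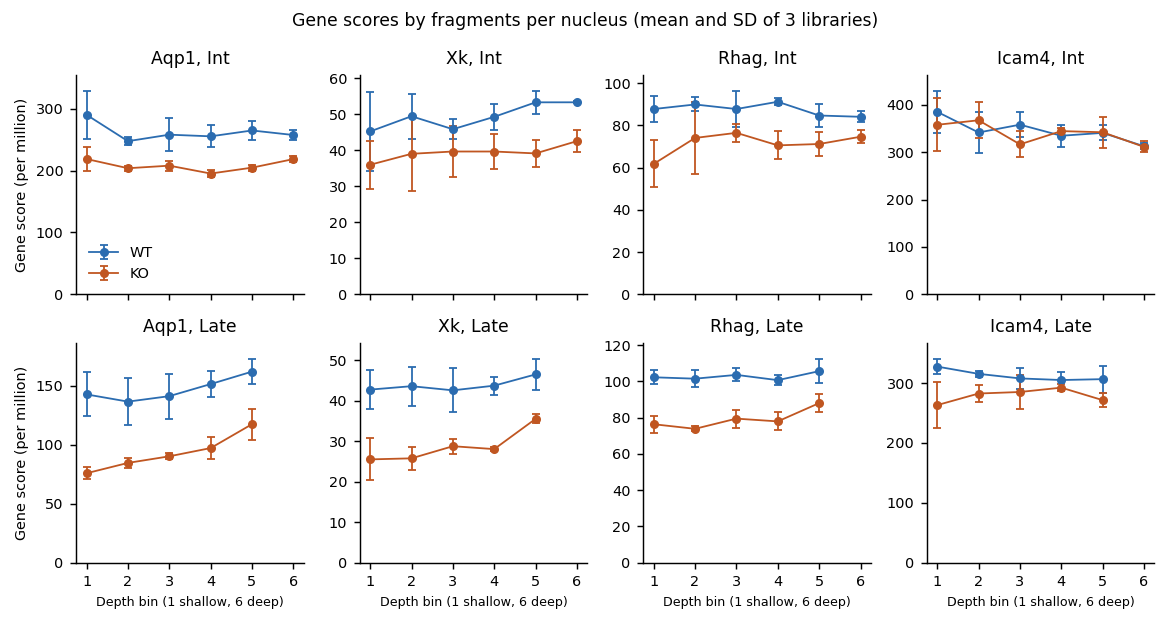
Gene score (per 1000000) by bin of fragments per nucleus (1 shallow, 6 deep), mean and SD of 3 libraries per genotype, for Aqp1, Xk, Rhag and Icam4 in Int (top) and Late nuclei (bottom). The KO line lies below the WT line in every bin for Aqp1, Xk and Rhag, and the lines of Icam4 cross in Int nuclei.

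Since the score takes in fragments near a gene, the genes whose start lies within 100 kb were examined in all nuclei. Over all genes tested there, 14.2% were lower and 29.1% higher past the threshold. Near Xk (X, 9272784 to 9313245, plus strand) 3 of 3 tested neighbours were lower past the threshold, the most changed being H2al1m (log2 change -0.37, adjusted p = 0.000592). Near Aqp1 (6, 55336299 to 55348555, plus strand) 1 of 2 was, namely Ghrhr (-0.49, adjusted p = 1.49e-06). Near Rhag (17, 40811149 to 40840754, plus strand) 1 of 3 was lower, and this gene, Crisp2, changed more than Rhag (-0.90, adjusted p = 1.06e-05). These coordinates are those of the deposited table, in mm10.

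Near Ermap (4, 119175457 to 119190011, minus strand) 2 of 7 neighbours were lower and 1 higher, the glucose transporter gene Slc2a1 (0.45, adjusted p = 0.00214). Near Kel (6, 41686330 to 41704325, minus strand) 1 of 5 was lower, Olfr459 (-0.31, adjusted p = 0.0219). Near Icam4 (9, 21029373 to 21030531, plus strand) 1 of 11 was lower and 1 higher, and its paralogue Icam1 changed by -0.15 (adjusted p = 0.0200). Near Rhd (4, 134864536 to 134896172, plus strand) 0 of 5 passed, and the most changed was Maco1 (-0.098, adjusted p = 0.0640). Slc14a1 (18, 78100091 to 78142119, minus strand) had 1 neighbour, Siglec15 (-0.12, adjusted p = 0.376), and Gypc (18, 32528320 to 32560034, minus strand) had none in the table.

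Genes that work beside these proteins were examined as lists, read against the 14.2% of all genes called lower and 29.1% called higher in all nuclei. In Int nuclei these shares were 7.10% and 12.7%, and in Late nuclei 18.5% and 32.9%. Of 13 partners in the Rh and Kell complexes and other membrane genes, 7 were lower and 1 was higher, with a median change of -0.12. Among the lower genes were Cd47, a member of the Rh complex (-0.22, adjusted p = 0.00194), and Epb42, protein 4.2 (-0.22, adjusted p = 0.00153); the higher gene was Slc2a1. In Int nuclei 4 of the 13 were lower and 0 higher, and in Late nuclei 7 and 1.

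Of 26 other blood group genes tested, 10 were lower and 5 higher, with a median of -0.038. Cd59a, an inhibitor of complement, was lowest (-0.53, adjusted p = 3.05e-06), followed by the scavenger receptor Cd36 (-0.38, adjusted p = 0.000652) and the Duffy antigen gene Ackr1 (-0.35, adjusted p = 1.53e-05). Gcnt2, whose enzyme makes the I antigen, was highest (0.68, adjusted p = 0.000211), followed by the drug transporter Abcc1 (0.41, adjusted p = 0.00162) and Emp3 (0.35, adjusted p = 4.34e-05). In Int nuclei 8 of 28 were lower and 3 higher, and in Late nuclei 11 of 24 and 6.

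Of 13 paralogues of the genes tested, 3 were lower and 5 higher, with a median of 0.085. The lower genes were Slc14a2 (-0.19, adjusted p = 0.0427), Icam1 and Aqp9 (-0.15, adjusted p = 0.0223). The most raised were Ece1, an endopeptidase related to Kel (0.62, adjusted p = 2.33e-06), Icam2 (0.54, adjusted p = 0.00129) and Aqp8 (0.38, adjusted p = 0.0392). In Int nuclei 2 of 14 paralogues were lower and 3 higher, and in Late nuclei 1 of 13 and 5. Of 8 erythroid regulators, 6 were lower and 1 higher, with a median of -0.18. Lmo2 (-0.26, adjusted p = 0.000949), Tal1 (-0.24, adjusted p = 0.000591) and Klf1 (-0.18, adjusted p = 0.00562) were lowest, and Gata2 was higher (1.19, adjusted p = 2.26e-07). In Int nuclei 3 of the 8 were lower and 1 higher, and in Late nuclei 7 and 1.

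The genes most like each of the 9 were sought over 33 means of a library in a cluster, at distances over 500 kb; these points share libraries, depth and clusters, so the correlations (Pearson) only describe. Aqp1 was most like Hemgn, an erythroid nuclear protein gene (r = 0.956), and Dek (0.956). Icam4 was most like Stkld1 (0.956) and Tmem184a (0.920), Gypc like Gm10804 (0.921) and Gm14635 (0.910), and Ermap like Mad2l1bp (0.920) and Sec22c (0.919). For Rhd the closest gene was Tmem167b (0.891), for Xk C030018K13Rik (0.870), for Rhag Ubxn2a (0.853), for Kel Kbtbd7 (0.853) and for Slc14a1 Mfhas1 (0.811). None of the 9 was among the leading pair of another.

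Many single nuclei had no score for a given gene. A score above 0 was found in 80.6% of nuclei for Gypc and 79.9% for Ermap, in 72.7% for Rhd, 71.2% for Aqp1 and 67.3% for Icam4. The share was 57.9% for Rhag, 57.7% for Kel, 55.3% for Slc14a1 and 38.5% for Xk. These shares depend on the fragments per nucleus and were not compared between genotypes.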

How the data were processed

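Per the labels' protocols, nuclei of sorted Ter119+ erythroblasts were made into 10x multiome libraries; mm10 and Cell Ranger are named in the submitters' processing notes, and the distance weights of the gene score were not given in the sources used here. The deposited gene scores are a signal that the authors scaled to a fixed sum per nucleus. Per the file headers, the deposited table of nuclei, which lists each nucleus 2 times, gives the count of fragments, the share of fragment ends in peaks, a doublet score, the class and the cluster.

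Library means were rescaled to 1000000, genes with a mean of at least 5 were kept, and log2(value + 1) was compared with limma 3.58.1 in R 4.3.3 (lmFit, eBayes with trend, two-sided, Benjamini-Hochberg over all genes tested, threshold 0.05) between 3 WT and 3 KO libraries, for all nuclei and for the classes and clusters that held 50 or more nuclei in each library. This scale understates changes of low scores. The code was tested on simulated data. Whether the authors removed doublets was not given; leaving out the 5% highest doublet scores was an alternative. The other alternatives were pseudocounts of 0.1 and 5, filters, scalings, depth- or class-standardised means, X-linked genes centred on their median, a replicate block and leaving out single libraries. Python 3.11.15 was used for the tables (pandas 2.3.3, numpy 2.4.6, scipy 1.17.1) and for the figures (matplotlib 3.10.9).

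The 9 genes and the other lists were chosen with earlier results of these data known. The genes named are the 9, up to 3 highest and 3 lowest changes past the threshold in all nuclei per list, the most changed neighbour within 100 kb, and the 2 genes most like each; 1 gene that the rule names is not reported here.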

Additional observations from a re-analysis of the deposited data

Results flagged for a closer look

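Kel went one way in cluster C2 and the other way in Int and Late nuclei, and Icam4 one way in C2 and the other way in Late nuclei. Kel was higher in every KO than in every WT library of C2 (log2 change 0.434) but lower in Int (-0.22) and Late nuclei (-0.34), with no overlap between genotypes in each. Icam4 was higher in KO in C2 (1.17) and lower in Late nuclei (-0.16), again without overlap; in Int nuclei its groups overlapped. The median change of all genes in C2 was itself above 0, at 0.15, and 68.1% of genes had a lower change than Kel there and 89.6% a lower change than Icam4. These differences between sets of nuclei were not tested, and the WT nuclei of C2 are those that were grouped with KO nuclei. Most KO Late nuclei lie in C2 and most WT Late nuclei in C3, and the WT nuclei of C2 were few (58 to 68 per library) and shallow (median 2101 fragments); the part of depth was not tested beyond the shallow nuclei of C2, where the changes were 0.34 for Kel and 1.28 for Icam4.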

How the results depend on the processing

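Rhag, Kel, Ermap, Xk and Aqp1 kept their calls in each of 19 alternatives in all nuclei and 17 in Late nuclei; Gypc, Rhd, Icam4 and Slc14a1 had calls that changed with the setting in one or the other. The cause of a change was not tested. The count of genes called was 4244 in all and 4560 in Late nuclei with a mean of at least 20, where fewer genes were tested. In Int nuclei it was 2419 without a filter and 1921 without a variance trend, which left 1 of the 9 genes, and 2547 to 4782 when single libraries were left out. In C2 leaving out single libraries gave 0 to 1161 genes, and in C5 8 to 329, with 0 to 1 of the 9. For the difference between Late and Int nuclei the count was 218 with a mean of at least 20 (1 of the 9, Xk), 279 under median centring, 199 under quantile normalization, 113 under cyclic loess, 206 without a variance trend, and 0 to 819 when single libraries were left out, 819 without WT replicate 3.

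With the replicate number as a block, 12 genes passed that test; the block gave 7470, 4527 and 7982 genes in all, Int and Late nuclei and changed 1 call among the 9, Rhd in all nuclei (-0.11), which then passed. The numbers only name the libraries: same-numbered libraries had correlated deviations of -0.12, -0.27 and 0.21 in all nuclei, 0.13, -0.084 and 0.19 in Int and 0.087, 0.045 and 0.051 in Late nuclei, so in no set was every pair above 0.1. Every pair exceeded the highest correlation with another number in Late nuclei (-0.011, 0.020 and -0.027), but not in all or Int nuclei. Deviations were taken from the mean of each genotype, so a positive correlation with 1 library lowers those with the others. The comparison therefore cannot show a pairing.

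Signs flipped only for changes that had not passed. In Int nuclei these were Rhd (0.025 quantile, 0.043 loess) and Icam4 (0.019 quantile, 0.048 loess, -0.067 to 0.010 when single libraries were left out). In C2 they were Rhag (-0.024) and Slc14a1 (-0.037) under median centring, Ermap (0.019) and Slc14a1 (-0.013) under quantile normalization, and Rhag (-0.045) and Aqp1 (-0.098) in shallow nuclei. When single libraries were left out of C2, Slc14a1 ran from -0.13 to 0.27, Rhd from -0.40 to 0.015 and Rhag from -0.082 to 0.26. In C5 they were Icam4 (-0.028) under median centring, Gypc (0.027) under quantile normalization and, when single libraries were left out, Icam4 (-0.043 to 0.092) and Xk (-0.26 to 0.018).

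Precision is limited by 3 libraries per genotype, and in C2 by the few, shallow WT nuclei. With 1 library left out, limma estimated the spread from the 5 others.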
